A study of Mus musculus with 91 samples.

Results

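Enzymes and remodelers that act on chromatin were followed in single granulocyte-monocyte progenitors of mice with an altered Gfi1 gene. The set was defined by symbol and not by any measured value: it holds the lysine demethylases (Kdm), the histone deacetylases (Hdac) and sirtuins (Sirt), the Smarc genes, the Chd and Brd families, Ezh1 and Ezh2, the de novo DNA methyltransferase genes (Dnmt3), the Tet genes and the acetyltransferases named Kat. Kdm1a, Hdac1, Hdac2 and Hdac3, direct partners of GFI1, were left out by the rule. It found 80 of the 23956 genes in the table. Of these 80, 67 were detected, meaning above 0 in at least 10% of all 91 cells pooled, 10 were above 0 in fewer cells, and 3 (Chd5, Kdm4d and Smarcd3) were listed at 0 in every cell. A few rows are not protein-coding members: Chd3os and Dnmt3aos are antisense transcripts and Smarca5-ps is a pseudogene copy of Smarca5. The libraries do not mark strand, so reads of an antisense transcript and of its partner cannot be told apart, and reads of Smarca5 and of its copy may have been split.

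The cells came from bone marrow of C57BL/6 mice. All of them carried the genotype Gfi1-R412X/- Irf8+/-, which pairs a Gfi1 allele coding for R412X with a minus allele and leaves a single intact copy of Irf8. They were sorted as lineage-negative, CD117+, Sca-1-, CD34+ and CD16/32high cells and formed 2 populations: 46 cells were GMP, and the other 45, CD11b+ GMP-P, are named for the integrin CD11b, product of Itgam, whose gate the protocol does not describe. No cells with unaltered Gfi1 were analysed here. The labels give no age and name no animals, so each population counts as 1 sample, no test between populations was possible, and SDs describe the spread over cells only. The sample descriptions of the populations also carry different numeric codes that the labels do not explain, and anything behind these codes cannot be told apart from the population.

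DNA in the nucleus is wrapped around histones, and the proteins studied here change that packaging. Acetyltransferases of the Kat group add acetyl groups to histone lysines, deacetylases and NAD-dependent sirtuins take them off, and bromodomain proteins read them. Demethylases of the Kdm group remove methyl groups from lysines, whereas EZH1 and EZH2, the catalytic subunits of Polycomb repressive complex PRC2, add the methyl marks of silenced genes. SWI/SNF, ISWI and CHD complexes use ATP to slide or evict nucleosomes. DNMT3 enzymes place methyl groups on DNA and TET enzymes oxidise them. GFI1 itself is a repressor of myeloid genes that works through LSD1 (encoded by Kdm1a) and class I deacetylases. SMARCD2 is a SWI/SNF subunit needed for the late granules of neutrophils, and TET2 and DNMT3A restrain the expansion of blood stem cells.

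The start regions of 4 members are shown because these genes mark the ends of the range of differences described below: Sirt3, Smarcb1 and Brd7 had the most negative differences from GMP, and Smarcd2 was among the few members with a higher mean in CD11b+ GMP-P. Each sequence is the 250 bases before the annotated start (RefSeq, GRCm38.p6, read 5′ to 3′ on the gene's strand, with CpG dinucleotides in capitals). For Sirt3 the more upstream of its annotated starts is given.
Sirt3 (chr7:140882310-140882559, minus strand): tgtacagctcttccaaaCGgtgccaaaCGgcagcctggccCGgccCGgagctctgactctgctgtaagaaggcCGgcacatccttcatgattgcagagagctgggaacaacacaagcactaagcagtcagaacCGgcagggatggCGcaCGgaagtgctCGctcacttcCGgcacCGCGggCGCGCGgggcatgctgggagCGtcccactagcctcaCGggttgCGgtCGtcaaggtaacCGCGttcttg
Smarcb1 (chr10:75921615-75921864, minus strand): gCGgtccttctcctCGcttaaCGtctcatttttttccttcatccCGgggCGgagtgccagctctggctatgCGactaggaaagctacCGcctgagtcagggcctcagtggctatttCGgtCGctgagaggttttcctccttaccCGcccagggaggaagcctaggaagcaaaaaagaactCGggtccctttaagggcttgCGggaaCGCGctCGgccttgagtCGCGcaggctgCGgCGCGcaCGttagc
Brd7 (chr8:88362173-88362422, minus strand): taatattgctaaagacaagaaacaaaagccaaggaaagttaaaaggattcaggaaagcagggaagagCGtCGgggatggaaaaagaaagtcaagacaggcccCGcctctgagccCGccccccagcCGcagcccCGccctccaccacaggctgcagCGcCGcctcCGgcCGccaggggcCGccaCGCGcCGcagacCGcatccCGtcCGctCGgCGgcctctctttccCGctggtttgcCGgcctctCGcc
Smarcd2 (chr11:106267633-106267882, minus strand): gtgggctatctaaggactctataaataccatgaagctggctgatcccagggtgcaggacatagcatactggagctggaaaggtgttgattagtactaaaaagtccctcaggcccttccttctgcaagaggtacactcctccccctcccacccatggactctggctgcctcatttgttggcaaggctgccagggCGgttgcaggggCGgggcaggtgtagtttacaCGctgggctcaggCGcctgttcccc
The 250 bases printed for Sirt3, Smarcb1 and Brd7 held 21, 21 and 22 CpG dinucleotides, and those for Smarcd2 held 4. The medians that follow were counted over longer windows. Start regions were on file for 64 of the 80 members, in 91 windows of 300 bases that reach 50 bases past the start. Their median was 22 CpG dinucleotides, while the median over all 32851 windows in the same table was 7. The 76 windows of detected members had a median of 23.5, close to the 21 of the windows of all detected genes on file. The table covers 7126 of the 9371 detected genes, too few for a check over detected genes, so these values are a description. AAATCA, which contains the AATC core recognised by GFI1, was searched on both strands. It was found in 5 of the 91 windows (5.49%), those of Kdm8, Dnmt3l and Kdm1b and both windows of Kat2b, against 14% of all windows. Of these members only Kat2b was detected. Among the 76 windows of detected members 2 (2.63%) held it, against 8.09% of the windows of all detected genes on file. None of the 4 windows printed here held it. A match is a string of letters and not a shown binding site. The build of these sequences differs from mm9, the build named for the expression values, and the 2 were joined by gene symbol only.

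Members were counted in each cell. GMP cells had 36.9 ± 6.50 members above 0 (mean ± SD, n = 46 cells, range 18 to 52) and CD11b+ GMP-P cells 27.9 ± 7.58 (n = 45, range 11 to 47). The populations overlapped, with the lowest counts in CD11b+ GMP-P. The number of all genes above 0 differed as well, at 5294 ± 801 in GMP, against 4112 ± 953 in CD11b+ GMP-P, and over cells the number of members followed the number of genes (Pearson r = 0.82 in GMP, against 0.91 in CD11b+ GMP-P, a description over cells that share a library preparation). As a share of the genes detected in the same cell, the set was about equal in both: the median was 0.688% in GMP (range 0.533 to 0.946) and 0.684% in CD11b+ GMP-P (range 0.447 to 0.837).

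**Figure D1:**
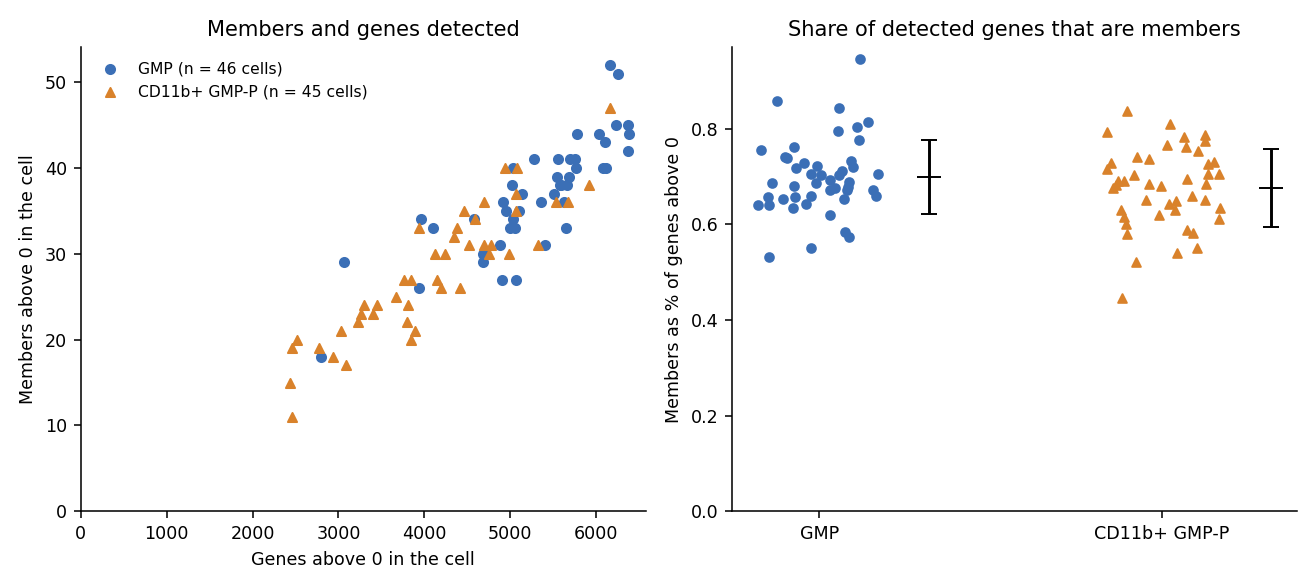
Left, members above 0 against all genes above 0 in each cell (1 point per cell, 46 GMP cells as circles and 45 CD11b+ GMP-P cells as triangles). Right, members as a percent of the genes above 0 in each cell, in which black bars give the mean ± SD and the sideways position carries no value. Both populations lie along the same band, and their median shares were 0.688% and 0.684%.

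Levels are given as log2(TPM + 1), where TPM is the length-normalised share of a gene among a cell's transcripts, so that genes can be compared. Differences are means over CD11b+ GMP-P cells less means over GMP cells, and one was called lower or higher from a size of 1. Among the 67 detected members 17 were lower in CD11b+ GMP-P (25.4%), none was higher and the other 50 differed by less than 1. Over all 9371 detected genes 32.0% were lower and 2.61% higher, so the share of members called lower was below that of all genes. The median member differed by -0.53, against -0.56 for all detected genes, and 52 members (77.6%) had a difference below 0, against 80.2% of all detected genes. As a group the set stood where detected genes in general stood. The background of a single member differed with how widely it was detected. The median over all genes ran from -0.25 in the least widely detected to -1.23 in the most widely detected. Among the 15 members above 0 in 75% or more of cells the median was -0.98, against -1.23 for the 1924 genes detected as widely. Of the 15, 7 were lower, against 58% of those genes. At 50 to under 75% of cells the medians were -0.59 for 15 members and -0.97 for all genes, with 4 lower, against 49%. At 30 to under 50% they were -0.70 for 14 members and -0.54, with 3 lower, against 26.8%. At 10 to under 30% they were -0.11 for 23 members and -0.25, with 3 lower, against 6.68%. The classes differed in spread: the SWI/SNF subunits ran from -3.0 to +0.47, the 7 sirtuins all had a negative difference, and the 9 detected Chd members stayed within 1 of 0.

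**Figure D2:**
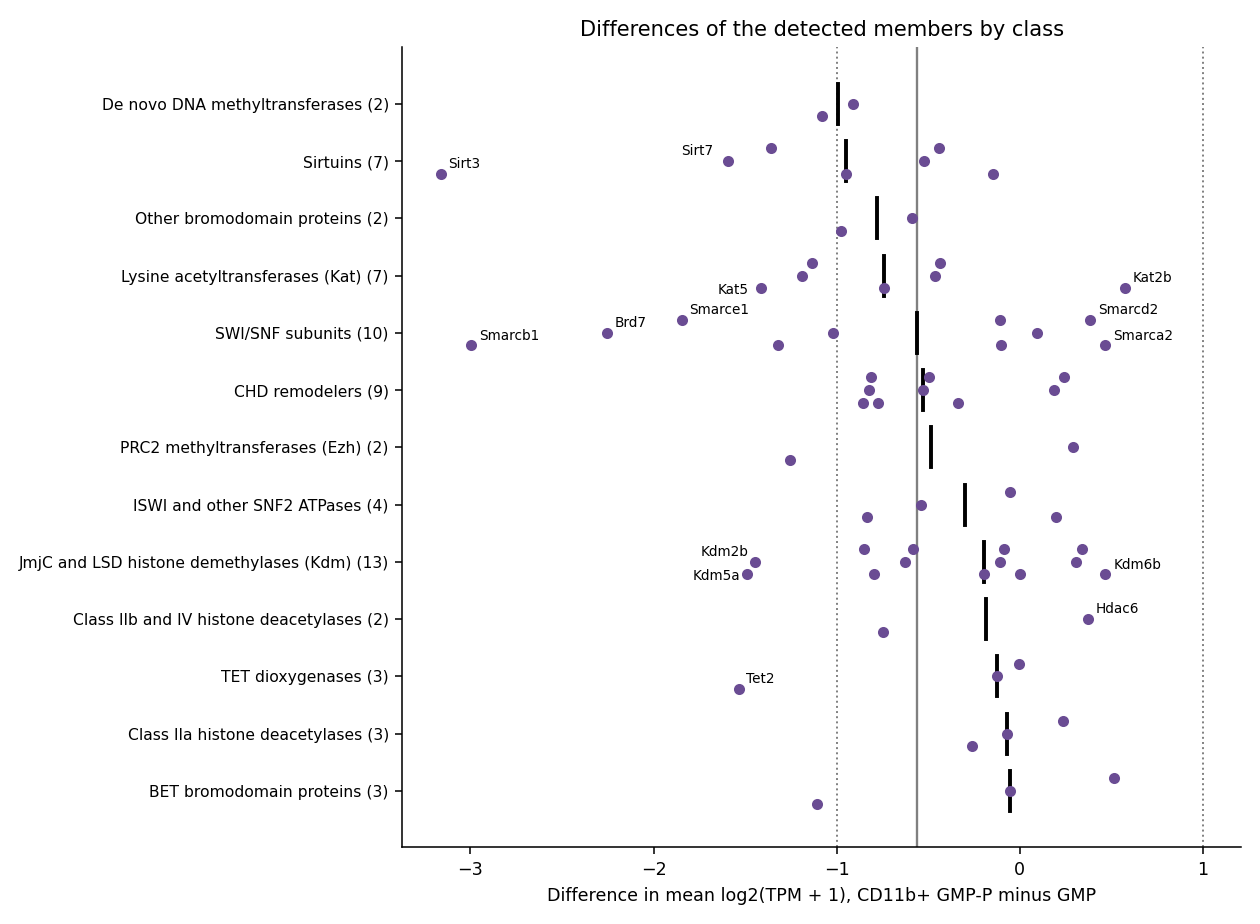
Difference of each detected member on the x axis (mean log2(TPM + 1), CD11b+ GMP-P minus GMP), in rows by class with the number of detected members in parentheses. Black bars mark class medians, the gray line the median of all detected genes (-0.56) and the dotted lines -1 and +1. Sirt3 and Smarcb1 lie farthest to the left, at -3.16 and -3.0, and no member passes +1.

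The SWI/SNF class held some of the most negative and some of the most positive differences. Smarcb1, a core subunit present in all canonical forms of the complex, averaged 4.60 ± 3.28 in GMP (lowest 0, median 4.87, highest 10.17) and 1.6 ± 2.51 in CD11b+ GMP-P (lowest 0, median 0, highest 9.08), a difference of -3.0. Most of its range was shared, but the upper levels were filled mainly by GMP cells. Smarcb1 was above 0 in 37 of 46 GMP cells (80.4%, with 66.1 to 90.6 as the exact 95% Clopper-Pearson bounds) and, of the 45 CD11b+ GMP-P cells, 21 (46.7%, bounds 31.7 to 62.1). It reached 10 TPM in 28 GMP cells but in 9 CD11b+ GMP-P cells. Where present it was also lower, at 5.72 in GMP, against 3.43 in CD11b+ GMP-P. Such intervals cover counting error only.

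Brd7, the bromodomain subunit of the PBAF form of SWI/SNF, averaged 4.30 ± 2.92 in GMP (0 to 8.91, median 4.47) and 2.05 ± 2.48 in CD11b+ GMP-P (0 to 8.71, median 0.54), a difference of -2.26. Its share of cells at 10 TPM or more went from 28 of 46 to 12 of 45. Smarce1, an HMG-box core subunit and the highest of the class in GMP, averaged 5.57 ± 2.56 (0 to 8.30, median 6.55) and 3.73 ± 3.19 (0 to 7.97, median 4.84), a difference of -1.85. In CD11b+ GMP-P, Smarce1 was either at 10 TPM or more (25 cells) or at 0 (14 cells) in all but 6 cells. Among genes detected as widely, 28.7% lay lower than Smarce1.

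Smarca4, the BRG1 ATPase, and Smarcc1, a scaffold subunit, were the other lower members of the class and were picked for naming after their values were seen. Smarca4 averaged 2.70 ± 2.41 in GMP, against 1.38 ± 2.32 in CD11b+ GMP-P (-1.32), and Smarcc1 2.56 ± 2.19 and 1.54 ± 2.02 (-1.02). As log2 ratios of mean TPM the differences were -0.26 and -0.81. Smarca4 was lower by 1 in 5 and Smarcc1 in 2 of 8 alternative settings. Of the genes detected as widely, 37.7% lay lower than Smarca4 and 57.2% lower than Smarcc1.

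The other subunits did not follow. Smarcd2 averaged 1.35 ± 2.11 in GMP (0 to 7.69, median 0) and 1.73 ± 2.80 in CD11b+ GMP-P (0 to 9.75, median 0), a difference of +0.38, and was at 10 TPM or more in 7 and 11 cells. Fewer CD11b+ GMP-P cells held it at all (18, against 21 GMP cells), so the higher mean lay in its level where present, 4.33 against 2.96. A single cell held 47.9% of the summed Smarcd2 TPM of that population. Smarca2, the BRM ATPase that can take the place of BRG1, averaged 1.08 ± 2.05 and 1.55 ± 2.19 (+0.47) and was above 0 in 16 GMP and 22 CD11b+ GMP-P cells. Cells with Smarca2 but no Smarca4 numbered 3 of 46 in GMP and 9 of 45 in CD11b+ GMP-P, and cells with Smarca4 but no Smarca2 numbered 22 and 10. Brd9, the bromodomain subunit of the non-canonical complex, was near equal at 2.18 and 2.27. Smarcc2 and Smarcd1 differed by -0.10 and -0.11, and Smarcd3 was listed at 0 in both populations, which, by a limit of 3 cells over the number of cells, allows a share of cells with a reading of up to 6.52% in GMP and of 6.67% in CD11b+ GMP-P. The limit covers counting only and not cells whose transcripts were missed.

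**Figure D3:**
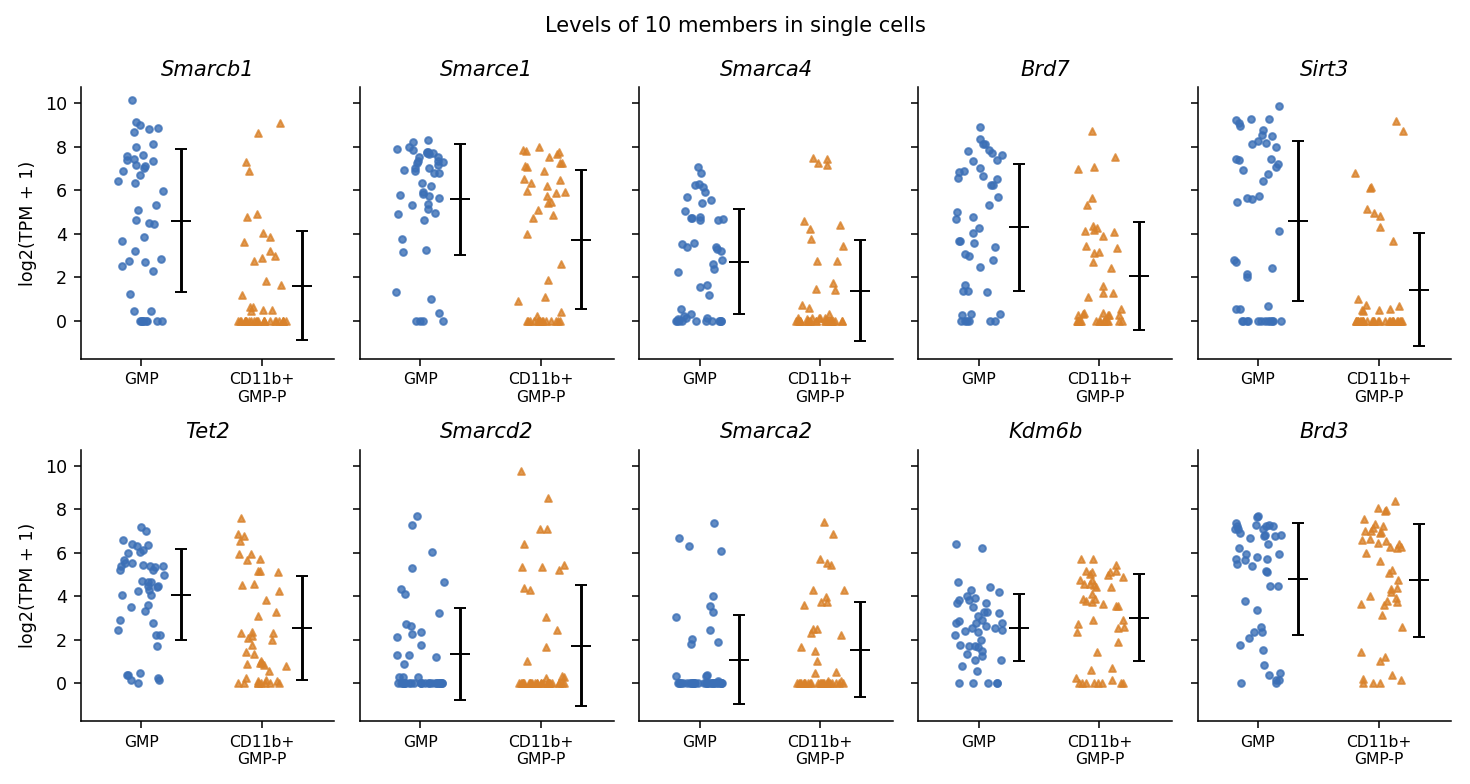
Single-cell levels of 10 members, with log2(TPM + 1) up the y axis, blue circles for the 46 GMP cells, orange triangles for the 45 CD11b+ GMP-P cells and black bars for mean ± SD. Smarcb1 and Sirt3 are at 0 or near it in most CD11b+ GMP-P cells, while Kdm6b reaches 10 TPM in more cells of that population (25) than of GMP (13).

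No detected ISWI, CHD or other SNF2 remodeler reached a difference of 1 in all cells. The median of the 9 detected Chd members was -0.53, equal to that of all 67 detected members. For the 4 detected ISWI and other SNF2 members it was -0.30. Smarca5, the ISWI ATPase SNF2H, was among the most widely found members, at 4.38 ± 2.49 in GMP, against 3.84 ± 2.82 in CD11b+ GMP-P (-0.54) in 43 and 41 cells. Smarcad1, an SNF2-type ATPase, differed by -0.83 and Smarcal1, an annealing helicase, by +0.20, and Smarca1 was found in 1 GMP cell. Smarca5-ps stayed under 2 TPM in every cell. Of the Chd members, Chd4, the NuRD ATPase, averaged 2.98 ± 1.70 and 2.16 ± 2.14 (-0.82), and Chd2 1.96 ± 2.26 and 1.10 ± 1.89 (-0.86). Chd7, a remodeler of enhancers, and Chd1, which binds active promoters, had slightly higher means in CD11b+ GMP-P (+0.24 and +0.19), and Chd7 was above 0 in 34 GMP and 36 CD11b+ GMP-P cells. Chd1l, Chd3, Chd6, Chd8 and Chd9 differed by -0.81 to -0.34, while Chd3os was found in 3 cells of each population.

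Each of the 7 sirtuins had its lower mean in CD11b+ GMP-P, and for 3 the difference reached 1. Sirt3, the main deacetylase of mitochondria and thus not itself a chromatin enzyme, had the largest difference of all members. It averaged 4.59 ± 3.69 in GMP (lowest 0, median 5.61, highest 9.89) and 1.43 ± 2.61 in CD11b+ GMP-P (lowest 0, median 0, highest 9.19), a difference of -3.16. Sirt3 was above 0 in 34 of 46 GMP cells (73.9%, 58.9 to 85.7) and in 17 of the 45 cells of CD11b+ GMP-P (37.8%, bounds 23.8 to 53.5). Levels of 10 TPM or more were seen in 26 and 10 of them. Another 12 GMP cells were at 0 and the rest lay in between, whereas most CD11b+ GMP-P cells were at 0. Sirt7, the nucleolar sirtuin, averaged 3.26 ± 2.90 and 1.67 ± 2.66 (-1.59), and Sirt2, the cytoplasmic one, 2.46 ± 3.03 and 1.10 ± 2.22 (-1.36). Taken as the log2 ratio of mean TPM, the difference of Sirt7 was only -0.13, since a single cell held 48.3% of its TPM in CD11b+ GMP-P. Among genes detected as widely, 29.9% lay lower than Sirt7. Sirt6, a nuclear sirtuin of DNA repair, differed by -0.95 but was at 10 TPM or more in nearly as many cells, 25 of GMP and 23 of CD11b+ GMP-P. Sirt1, Sirt4 and Sirt5 were found in 9 to 11 GMP cells and in 4 or 5 CD11b+ GMP-P cells.

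The classical deacetylases left after the rule were sparse. Hdac7, a class IIa deacetylase, averaged 0.76 ± 1.54 in GMP, against 0.69 ± 1.6 in CD11b+ GMP-P, and Hdac4 and Hdac5 of the same class differed by +0.24 and -0.26. Hdac6, the tubulin deacetylase, was found in 8 GMP and 12 CD11b+ GMP-P cells (+0.37), and Hdac10, a polyamine deacetylase, in 14 and 5 (-0.75). Hdac8, the X-linked class I enzyme, was above 0 in 7 of 46 GMP cells (15.2%, 6.34 to 28.9) and in 0 of 45 CD11b+ GMP-P cells, for which the same limit of 3 cells gives a share of up to 6.67% with a reading. Hdac9 was found in 5 and 3 cells and Hdac11 in 1 GMP cell.

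Among the 17 Kdm members 13 were detected, 2 were lower and the rest differed by less than 1. Kdm5a, which removes methyl groups from histone H3 at active promoters, averaged 3.23 ± 2.61 in GMP (0 to 7.73, median 3.98) and 1.74 ± 2.31 in CD11b+ GMP-P (0 to 7.11, median 0.24), a difference of -1.49. Kdm2b, a demethylase that also brings a Polycomb complex to CpG islands, averaged 2.09 ± 2.71 and 0.65 ± 1.56 (-1.44) and was at 10 TPM or more in 15 and 4 cells. Kdm5c, of the same subfamily as Kdm5a, differed by -0.85.

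Kdm6b, the JMJD3 enzyme that removes the mark set by EZH2, had the highest mean of the class in CD11b+ GMP-P. It averaged 2.55 ± 1.54 in GMP (0 to 6.43, median 2.58) and 3.01 ± 2.0 in CD11b+ GMP-P (0 to 5.72, median 3.64), a difference of +0.47. That value lay above those of 92.7% of genes detected in 75% or more of cells. Kdm6b was found in slightly fewer CD11b+ GMP-P cells (37 of 45, against 41 of 46), but 25 of them reached 10 TPM, against 13 GMP cells. No single cell weighed much on it, since the highest CD11b+ GMP-P cell held 7.69% of the summed TPM. Its relative Kdm6a averaged 0.42 and 0.34. Kdm3b, a demethylase of histone H3, differed by +0.34. The other detected members (Kdm2a, Kdm3a, Kdm4a, Kdm4c, Kdm5b, Kdm5d and Kdm7a) ran from -0.79 to +0.31. Kdm1b, Kdm4b and Kdm8 were found in 5 to 7 GMP cells and 2 or 3 CD11b+ GMP-P cells, and Kdm4d in none.

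Of the 7 acetyltransferases of the Kat group 3 were lower. Kat5 (TIP60) averaged 1.82 ± 2.86 in GMP, against 0.41 ± 1.54 in CD11b+ GMP-P (-1.41) and was above 0 in 17 of 46 (37%, 23.2 to 52.5) and 7 of 45 cells (15.6%, 6.49 to 29.5). Kat2a (GCN5, of the SAGA complex) averaged 1.70 ± 2.56 and 0.56 ± 1.65 (-1.14). Kat8 (MOF), which acetylates histone H4, averaged 1.97 ± 2.81 and 0.78 ± 2.44 (-1.19), but its direction turned when taken as the log2 ratio of mean TPM (+1.04), because a single cell at 1670 TPM held 66.6% of the CD11b+ GMP-P sum. Kat2b (PCAF), the close relative of Kat2a, went the other way, from 0.32 ± 0.87 to 0.90 ± 1.94 (+0.57), and was found in 8 GMP and 15 CD11b+ GMP-P cells. Counting any value above 0, cells with Kat2a and no Kat2b numbered 20 in GMP, against 6 in CD11b+ GMP-P, and those with Kat2b and no Kat2a 4 and 11. At 10 TPM or more, Kat2a alone was seen in 12 and 3 cells and Kat2b alone in 0 and 3. Kat7 (HBO1) differed by -0.74, Kat6a (MOZ) by -0.46 and Kat6b by -0.43.

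The bromodomain readers of the BET family differed among themselves. Brd3 averaged 4.79 ± 2.56 in GMP, against 4.73 ± 2.59 in CD11b+ GMP-P, in 44 and 42 cells. Brd2 was the member of the family called lower, at 3.62 ± 2.56 and 2.51 ± 2.45 (-1.10), but 54.4% of the genes detected as widely lay lower. Brd8, a subunit of the TIP60 complex, was found in all 46 GMP cells and 44 CD11b+ GMP-P cells and differed by -0.98. Brd1, a scaffold of HBO1, differed by -0.59.

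Enzymes of Polycomb silencing and DNA methylation were led by single members. Ezh2 averaged 3.70 ± 3.07 in GMP (0 to 9.63, median 3.03) and 2.44 ± 3.0 in CD11b+ GMP-P (0 to 9.58, median 0.82), a difference of -1.25, which was in the middle of the genes detected as widely (49.5% of them lay lower). Ezh1 was found in 9 cells of each population, at 0.26 and 0.55. Tet2 was found in nearly every GMP cell, 45 of 46 (97.8%, 88.5 to 99.9), and in 37 of the 45 cells of CD11b+ GMP-P (82.2%, 67.9 to 92). It averaged 4.08 ± 2.08 (0 to 7.20, median 4.56) and 2.54 ± 2.40 (0 to 7.58, median 2.0), a difference of -1.53, and 32 and 15 cells reached 10 TPM. Tet3 was near equal at 1.17 and 1.04, and Tet1 stayed under 10 TPM in every cell. Dnmt3b was above 0 in 18 of 46 GMP cells (39.1%, 25.1 to 54.6) but in 4 of the 45 cells of CD11b+ GMP-P (8.89%, 2.48 to 21.2), with means of 1.21 ± 2.33 and 0.13 ± 0.72 (-1.08). Dnmt3a averaged 1.44 ± 2.05 and 0.53 ± 1.32 (-0.91), in 23 and 12 cells. Dnmt3l, the catalytically inactive relative, was found in 4 GMP cells, all under 10 TPM, and in 5 CD11b+ GMP-P cells, all above it, and thus just missed the 10% needed to count as detected. Dnmt3aos was found in 1 GMP cell.

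**Figure D4:**
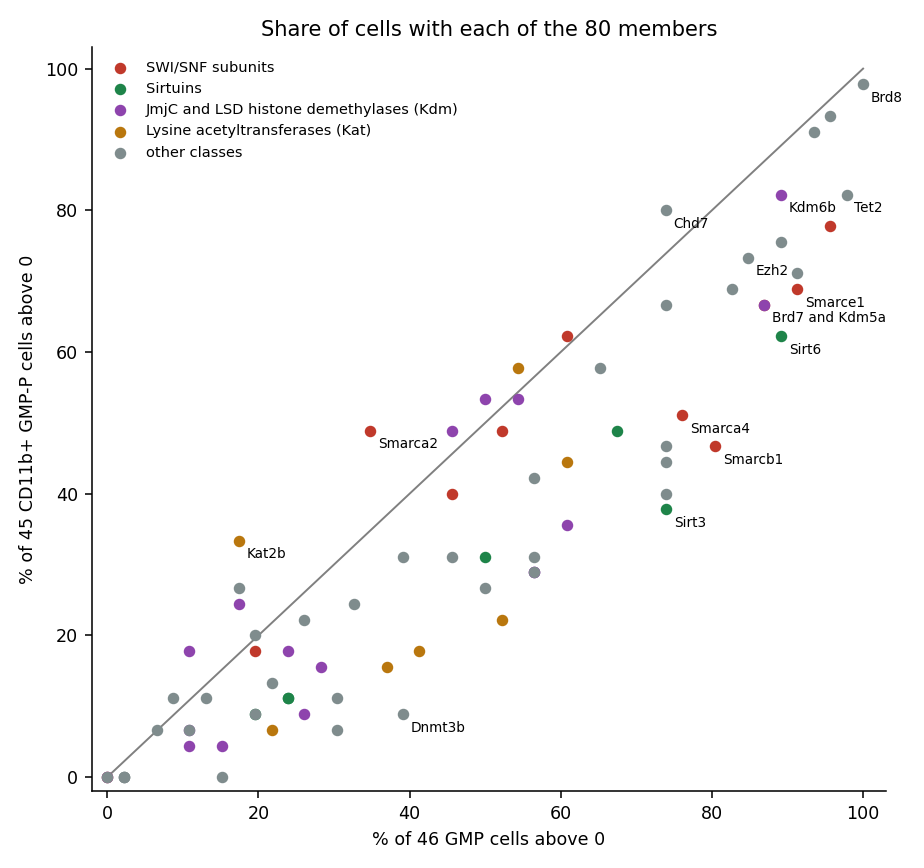
Percent of 46 GMP cells (x axis) and of 45 CD11b+ GMP-P cells (y axis) in which each of the 80 members was above 0, coloured by class, with a gray line of equal shares. Most members lie under the line, Sirt3, Smarcb1 and Dnmt3b well under it, and Kat2b and Smarca2 above it.

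Partner subunits and enzymes outside the symbol rule stood in a like range. Of 91 detected partners in 8 lists, 24 (26.4%) were lower, none was higher and the median difference was -0.42, against 32.0% of all detected genes and -0.56. Ruvbl2, an ATPase shared by the TIP60 and INO80 complexes, had the largest difference, from 7.19 ± 2.45 in GMP to 3.12 ± 3.76 in CD11b+ GMP-P (-4.07), and its relative Ruvbl1 differed by -2.27. Of 20 detected genes in that list of acetyltransferases and their partners 8 were lower. Actl6a, the actin-like subunit of SWI/SNF, went from 4.96 ± 3.31 to 1.82 ± 2.84 (-3.14), and Pbrm1, of the PBAF form like Brd7, differed by -1.37. They were 2 of the 4 lower genes among 13 detected SWI/SNF partners. Of 7 detected PRC2 partners 3 were lower, Mtf2 (-2.68), the histone chaperone Rbbp7 (-2.57) and Eed (-1.17), the latter named after its value was seen, while Suz12 differed by +0.08. Among 21 detected histone methyltransferases 5 were lower, led by Nsd1 (-1.91) and Suv39h1 (-1.54). Sin3b (-1.92) and Brms1 (-1.75) were the lower ones of 12 SIN3 and NCoR genes, and Mta3 (-1.39) and Mta2 (-1.13) those of 7 NuRD genes. None of 5 ISWI partners or of 6 genes of maintenance methylation and methyl-CpG reading reached a difference of 1, and Dnmt1, the maintenance methyltransferase, differed by +0.13.

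The populations differed in features other than chromatin genes, and the part of these in the differences above was not tested except by the restrictions given last. Per cell, the top 50 genes made up 27.3% ± 1.96 of its TPM in GMP, against 48.9% ± 16.1 in CD11b+ GMP-P. All 8 late neutrophil granule genes on file (Camp, Ngp, Ltf, Lcn2, S100a8, S100a9, Chil3 and Cd177) were higher in CD11b+ GMP-P, and their summed level ran from 52 to 58064 TPM in GMP (median 819) and from 36.8 to 571346 TPM in CD11b+ GMP-P (median 331378). The 6 GMP granule genes were all lower. Itgam averaged 0.54 in GMP, against 3.68 in CD11b+ GMP-P, in the direction of the names, whereas Kit averaged 3.65 and 0.90 and Cd34 7.22 and 2.55 although both were sorted for. Ly6a, which encodes Sca-1, was above 0 in 43 GMP and 44 CD11b+ GMP-P cells despite the Sca-1- gate. Of 10 erythroid and megakaryocyte genes none was detected and 6, Hbb-b1 and Klf1 among them, were at 0 in every cell, although Gata1 reached 562 TPM in a CD11b+ GMP-P cell and Hba-a1 143 TPM in a GMP cell. Of 9 lymphoid genes 6, Cd3e and Cd79a among them, were at 0 in every cell. Both detected ones were lower in CD11b+ GMP-P, Cd79b (-2.04, in 29 GMP and 15 CD11b+ GMP-P cells) and Nkg7 (-2.85, in 46 and 43). The summed level of the list had a median of 2454 TPM in GMP and 1017 TPM in CD11b+ GMP-P. Nkg7 alone had medians of 2295 and 1017 TPM, and Cd79b of 14.3 and 0 TPM. Of 6 detected monocyte and dendritic genes 3 were lower, F13a1 (-3.83), Ms4a6c (-3.12) and Ccr2 (-2.93). The other 3, Csf1r (-0.82), Klf4 (-0.46) and Ly6c2 (-0.09), differed by less than 1. The list had a median sum of 8225 TPM in GMP and 3527 TPM in CD11b+ GMP-P, and Ly6c2 alone had medians of 7803 and 3526 TPM. Of 4 detected basophil, mast cell and eosinophil genes 1, Mcpt8, was lower (-2.22, in 21 and 6 cells), and single cells held Cpa3 at 18985 TPM (GMP) and Prg2 at 128468 TPM (CD11b+ GMP-P). Of 7 macrophage genes on file 4, C1qa, C1qb, C1qc and Marco, were at 0 in every cell, and the detected one, Vcam1, was higher (+1.0, in 10 and 19 cells). None of 8 detected dissociation stress genes reached a difference of 1. In these mRNA libraries a lower share of one gene and a higher share of another cannot be told apart.

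Restricting the cells moved some members more than others. A shared range of genes detected was set from the 5th percentile of GMP cells to the 95th percentile of CD11b+ GMP-P cells. In that range (3947 to 5645 genes, 26 GMP and 21 CD11b+ GMP-P cells), the median difference of all detected genes was -0.22, and 17.8% of them were lower and 6.27% higher. The share of the top 50 genes still differed in this range, at 27.5% ± 1.90 and 38.5% ± 9.46. Of the 67 members 12 were lower and 3 higher there, and 11 of the 17 lower members remained lower. Sirt3 differed by -2.13, Brd7 by -2.25 and Smarcb1 by -2.08, while Smarce1 differed by -0.82 and Ezh2 by -0.36. The 3 higher ones were Smarcd2 (+1.23), Brd9 (+1.11) and Smarca5 (+1.03, against -0.54 in all cells). Without the 23 CD11b+ GMP-P cells whose 50 highest genes held over 50% of the TPM, 10 members were lower and 9 of the 17 remained so, among them Sirt3 (-2.21), Brd7 (-1.81) and Smarcb1 (-1.72), against 15% of all detected genes, and 2 were higher, Smarcd2 (+1.55) among them, against 3.52%. As log2 ratios of mean TPM, which weigh the highest cells most, 20 members were lower, against 30.3% of all detected genes, and 7 (Ezh1, Hdac4, Hdac6, Kat2b, Kat8, Smarcd2 and Kdm4a) were higher, against 10% of all detected genes. For each of these 7 a single cell held a large share of the summed CD11b+ GMP-P TPM, from 41.3% for Hdac4 to 74.9% for Ezh1. A scaling by median of ratios, which moved the median of all detected genes from -0.56 to -0.31 and their calls to 20.3% lower and 4.44% higher, left 9 members lower and put 1, Kdm6b, higher (+1.07).

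**Figure D5:**
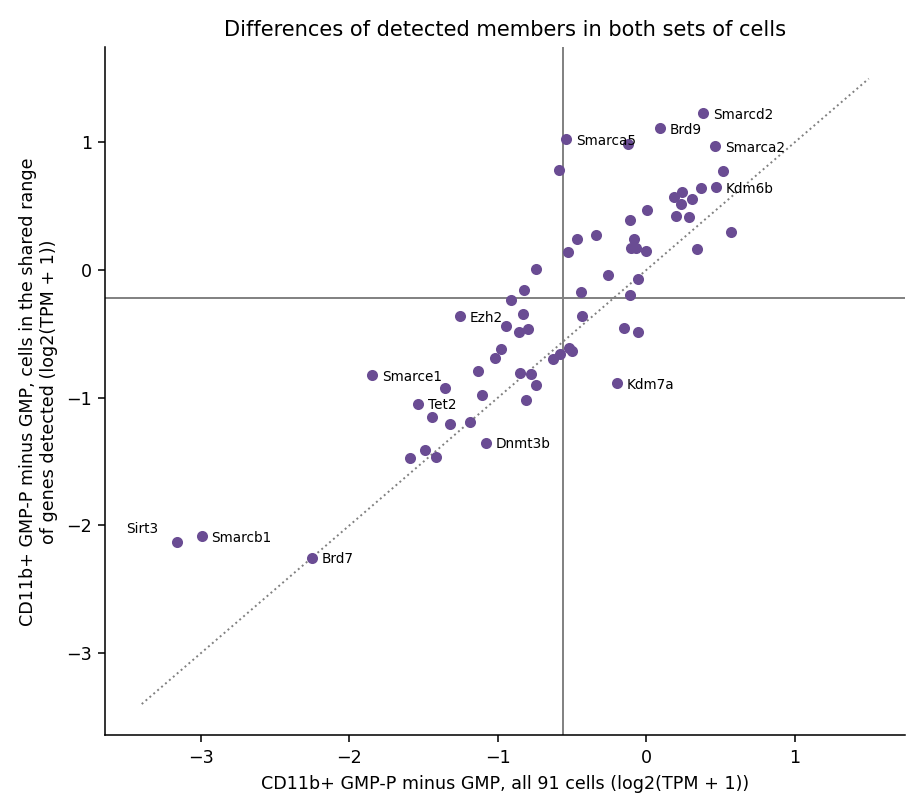
Difference of each detected member in all 91 cells (x axis) and in the shared range of genes per cell, 26 GMP and 21 CD11b+ GMP-P cells (y axis), both as mean log2(TPM + 1) of CD11b+ GMP-P less that of GMP. Gray lines mark the medians of all detected genes (-0.56 and -0.22) and the dotted line equal values. Sirt3, Smarcb1 and Brd7 stay below -2 in both, and Smarcd2, Brd9 and Smarca5 pass +1 in the shared range and not in all cells.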

How the data were processed

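Cells were processed singly in Fluidigm C1 chips, with SMARTer cDNA, Nextera XT libraries and paired 150 bp reads, per the labels' protocols. The authors deposited 1 table of log2 values. Raised from the log scale and less 1, each cell summed to between 999999 and 1000080, which identifies log2(TPM + 1). RSEM and mm9 are named, per the submitters' processing notes; for aligner and annotation, not given in the sources used here. TPM keeps no depth, so depth per cell is unknown. In all 80.3% of values were 0, and a 0 can be a missed transcript. No cells were left out and no doublet caller was run. Cells were compared pairwise for repeats, and no pair correlated above 0.736.

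Means, SDs and differences over cells were computed with Python 3.11.15, pandas 2.3.3 and scipy 1.17.1, with 95% Clopper-Pearson bounds (exact) for shares. No p-value was made, since each population is 1 sample. The calculation was tested on simulated data. The members and lists were chosen with earlier results of these data known. Named members were, in each class, the 4 with the highest mean and, among detected members, the 2 largest differences in each direction. Partners were named when among the 2 largest differences of their list and of size 1 or more. Eed, Suz12 and Dnmt1 were named outside this rule. A member is counted but not reported here by name. Other members are named to account for the set, and were added after their values were seen, as were the paralogue pairs. As alternatives, the pseudocount was set to 0.1 or 10, and the others were a log2 ratio of mean TPM, median of ratios scaling (1637 genes), scaling without the 50 highest genes, other filters and call sizes, floors of 1 and 10 TPM, and 3 restrictions on cells.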

Additional observations from a re-analysis of the deposited data

How the results depend on the processing

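The median difference of the members, -0.53 in the main setting, was -0.94 and -0.18 with pseudocounts of 0.1 and 10, -0.21 with the log2 ratio of mean TPM, -0.33 with median of ratios scaling, -0.79 with a filter of 30% of cells, -0.34 where genes detected per cell overlap (the shared range) and -0.21 without cells whose 50 highest genes held over 50% of TPM. The gap to all detected genes, 0.034 in the main setting, was 0.0083 with a pseudocount of 0.1, 0.26 with the log2 ratio, -0.027 with median of ratios scaling, 0.011 without the 50 highest genes, -0.19 with no filter, 0.059 with a filter of 30%, -0.13 in the shared range, 0.011 without cells over 50% and 0.021 without the 5% of cells with the most genes. Members called lower numbered 17, and 31 and 4 with pseudocounts of 0.1 and 10, 9 with median of ratios scaling, 10 without cells over 50%, and 35 and 3 at call sizes of 0.5 and 2. Over all detected genes the shares called lower were 48.5% and 13.5% with these pseudocounts, 20.3% with that scaling, 15% without those cells and 53% and 10.9% at those call sizes, against 32.0% in the main setting. Members higher by 1 numbered 0, but 7 with the log2 ratio, 1 with median of ratios scaling, 3 in the shared range and 2 without cells over 50%. Over all detected genes the shares called higher in these settings were 10%, 4.44%, 6.27% and 3.52%, against 2.61% in the main setting. At a call size of 0.5, 2 members were higher, against 5.92% of all detected genes. Among members called lower, the difference of Kat8 reversed, to +1.04 with the log2 ratio. Some members that were not called changed sign as well. In the shared range Brd1 went from -0.59 to +0.78, Smarca5 from -0.54 to +1.03 and Tet3 from -0.12 to +0.99. Kat6a went from -0.46 to +0.56 with the log2 ratio. In 8 settings with the same genes, 16 of the 17 lower members kept a difference below 0, the exception being Kat8, and Sirt3, Smarcb1 and Brd7 were lower by 1 in all 8. The share of detected genes that are members moved by less than its SD over cells in every setting tried. No paired analysis was possible because the populations share no cell number and each is 1 sample. With 1 sample each, no difference has a replicate check, and the depth of each cell is unknown.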
